A study of Mus musculus with 50 samples.

Results

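The cytosolic and mitochondrial heat shock genes described here are 10 protein-coding genes, Hspa1a, Hspa1b, Hspa8, Hsph1, Hspa4l, Hspd1, Hspe1, Hsp90aa1, Stip1 and Dnajb1, taken by name from the 35750 genes of the deposited table, which holds 1 row for each. RNA was sequenced from wild-type C57BL6/J mouse embryos flushed from superovulated females 3 to 12 weeks old and cultured in KSOM medium. The study asks how the homeobox protein DUXBL acts on the exit from totipotency. Duxbl embryos had been injected at 24 h after the hormone hCG with 200 ng/µl of Duxbl-V5-2A-NLS-mCherry mRNA, mCherry embryos with 200 ng/µl of NLS-mCherry mRNA, and uninjected embryos with nothing. They were collected as late 1-cell embryos 28 to 30 h after hCG (late 1C), early 2-cell embryos at 32 h (early 2C) and late 2-cell embryos at 48 h (late 2C). Each tube pooled 5 embryos. Uninjected and mCherry embryos gave 6 libraries at each stage, and Duxbl embryos gave 4, 5 and 5, for 50 libraries in 9 groups. Injection supplies the mRNA before the embryo's own genome is broadly active, so the Duxbl groups model early excess rather than normal levels. Protein was not measured in these data.

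Heat shock proteins are chaperones that bind unfolded proteins and help them fold, and many of their genes are switched on by the heat shock factors, of which HSF1 is the main one in stressed cells. HSP70 proteins work in cycles with HSP40 partners and with nucleotide exchange factors of the HSP110 family, and pass clients to HSP90 through the adaptor STIP1. HSP60 and HSP10 form the folding chamber of mitochondria. In mouse embryos, HSP70 is known as one of the first products of the embryonic genome, while HSP90 and HSF1 are known as maternal products of the oocyte.

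Deposited totals were 22534552 to 26956849 per library at late 1C, 22302760 to 26406868 at early 2C and 12044838 to 22528884 at late 2C. These are scaled values and not read depths, so no counting interval was computed. Levels are given as CPM, here computed from deposited values and scaled library sizes in place of read counts. They are shares of the RNA in a tube, so amounts per embryo or per cell cannot be recovered. A change in other transcripts can also shift the share of a gene whose own amount is unchanged. Duxbl1, the row that can take reads from the injected mRNA, was at 3960 ± 631 CPM (SD, n = 4) in Duxbl against 140 ± 19.0 CPM (n = 6) in mCherry embryos at late 1C, and was higher in Duxbl embryos at each stage (log2 difference 4.81, 4.04 and 3.08). Nothing in the labels says that the numbered libraries came from separate litters, so the p-values measure the spread between these tubes. A gene was called at a Benjamini-Hochberg adjusted p under 0.05 from limma over all genes tested, and all 10 genes passed the filter on low values in every comparison.

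Promoter sequences are shown for Hspa1a and Hspa1b because they are nearly identical. The limit on telling that pair apart comes from their transcripts, compared below. A sequence is also shown for Hspe1, because its window holds the 3-unit heat shock elements that it shares with Hspd1. Each is the 250 bases before the start of the gene in RefSeq (GRCm38.p6): chr17:34972157-34972406 on the minus strand for Hspa1a, chr17:34959239-34959488 on the minus strand for Hspa1b and chr1:55087898-55088147 on the plus strand for Hspe1. Capitals mark a 2-unit heat shock element (GAANNTTC) in the Hspa1 pair and overlapping 3-unit elements in Hspe1, which are GAANNTTC followed by NNGAA or TTCNNGAA followed by NNTTC.
Hspa1a: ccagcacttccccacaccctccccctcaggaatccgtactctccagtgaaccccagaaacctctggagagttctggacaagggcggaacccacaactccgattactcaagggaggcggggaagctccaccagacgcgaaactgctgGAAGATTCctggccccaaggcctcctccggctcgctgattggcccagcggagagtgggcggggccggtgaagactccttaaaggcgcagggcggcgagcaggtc
Hspa1b: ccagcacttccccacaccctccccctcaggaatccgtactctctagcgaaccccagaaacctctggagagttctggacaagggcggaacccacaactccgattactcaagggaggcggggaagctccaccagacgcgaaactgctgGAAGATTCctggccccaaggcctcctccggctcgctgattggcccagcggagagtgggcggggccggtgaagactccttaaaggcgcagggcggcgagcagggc
Hspe1: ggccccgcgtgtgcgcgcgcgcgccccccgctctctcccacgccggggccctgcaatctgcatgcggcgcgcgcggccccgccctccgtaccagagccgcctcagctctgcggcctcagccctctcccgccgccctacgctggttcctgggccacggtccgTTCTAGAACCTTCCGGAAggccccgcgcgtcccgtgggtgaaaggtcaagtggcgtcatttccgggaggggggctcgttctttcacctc

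The Hspa1a and Hspa1b windows differed at 3 of 250 bases. The coding sequences, 1926 and 1929 bases long, were 99.4% identical when aligned, with 8 bases that differed and 3 in gaps. Of the 75-base windows of the Hspa1a transcript, 1524 of 2893 (52.7%) occurred letter for letter in the Hspa1b transcript. The values of either gene alone are therefore uncertain, and their sum is given beside them. The genes lie 9951 bases apart on the same strand. Of the 10 genes, 8 had a RefSeq promoter window of 250 bases before to 50 after the start, 11 windows in all, searched on both strands. A 3-unit element was present for Hspd1, Hspe1 and Hsph1, against 0.603% of all 32851 windows. Hspd1 and Hspe1 are divergent neighbours and share the same site, and the Hsph1 match lay after the start. GAANNTTC was present for 5 genes (Hspa1a, Hspa1b, Hsph1, Hspd1 and Hspe1) against 7.86% of all windows, and TTCNNGAA, which overlaps it in the 3-unit matches, for 3 genes against 8.52%. TATAAA was found for Stip1 alone, against 13.6% of all windows. The elements were shared by genes that moved in opposite directions below. A match is only a match of letters.

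From late 1C to early 2C only 2 of these genes were called in uninjected embryos, and both fell. In uninjected embryos Hsph1 fell by 1.14 on the log2(CPM + 1) scale (SE 0.26, adjusted p = 0.00478) and Hsp90aa1 by 0.99 (SE 0.20, adjusted p = 0.00142). That is 2 of 10 genes, where 2.89% of all genes were called and 1.77% were called lower. For the same number of genes, 2, the groups did not overlap, against 3.77% of all genes. With the library number as a block, which pairs these libraries, Hspa8 was also called (adjusted p = 0.0250, against 0.208 without it), and without the libraries numbered 4 and 5 Hsph1 was not (adjusted p = 0.197). In Duxbl embryos over the same interval Hsp90aa1 fell by 1.18 (SE 0.24, adjusted p = 0.0036) and was the only gene of the 10 called, where 0.92% of all genes were called and 0.837% called lower. It was also 1 gene whose groups did not overlap, against 6.36% of all genes. Without the libraries numbered 4 and 5 it was not called (adjusted p = 0.107).

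From early 2C to late 2C all 10 genes changed in uninjected embryos, 5 up and 5 down, where 57.1% of all genes were called (30.8% up and 26.3% down). Hspa1a, Hspa1b, Hspa8, Hsph1 and Stip1 rose, and Hspa4l, Hspd1, Hspe1, Hsp90aa1 and Dnajb1 fell. The early 2C and late 2C libraries did not overlap for 6 of the 10, against 33.8% of all genes. At late 2C Duxbl embryos differed from mCherry embryos in 8 of the 10, where 55.7% of all genes were called (25.9% higher and 29.8% lower). The same 5 genes that rose in uninjected embryos were lower in Duxbl embryos, 3 of the 5 that fell were higher, and Hsp90aa1 and Dnajb1 were not called. The groups did not overlap for 6 of the 10, against 34.6% of all genes. Both shares of genes called are thus high across the transcriptome at this stage.

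**Figure D1:**
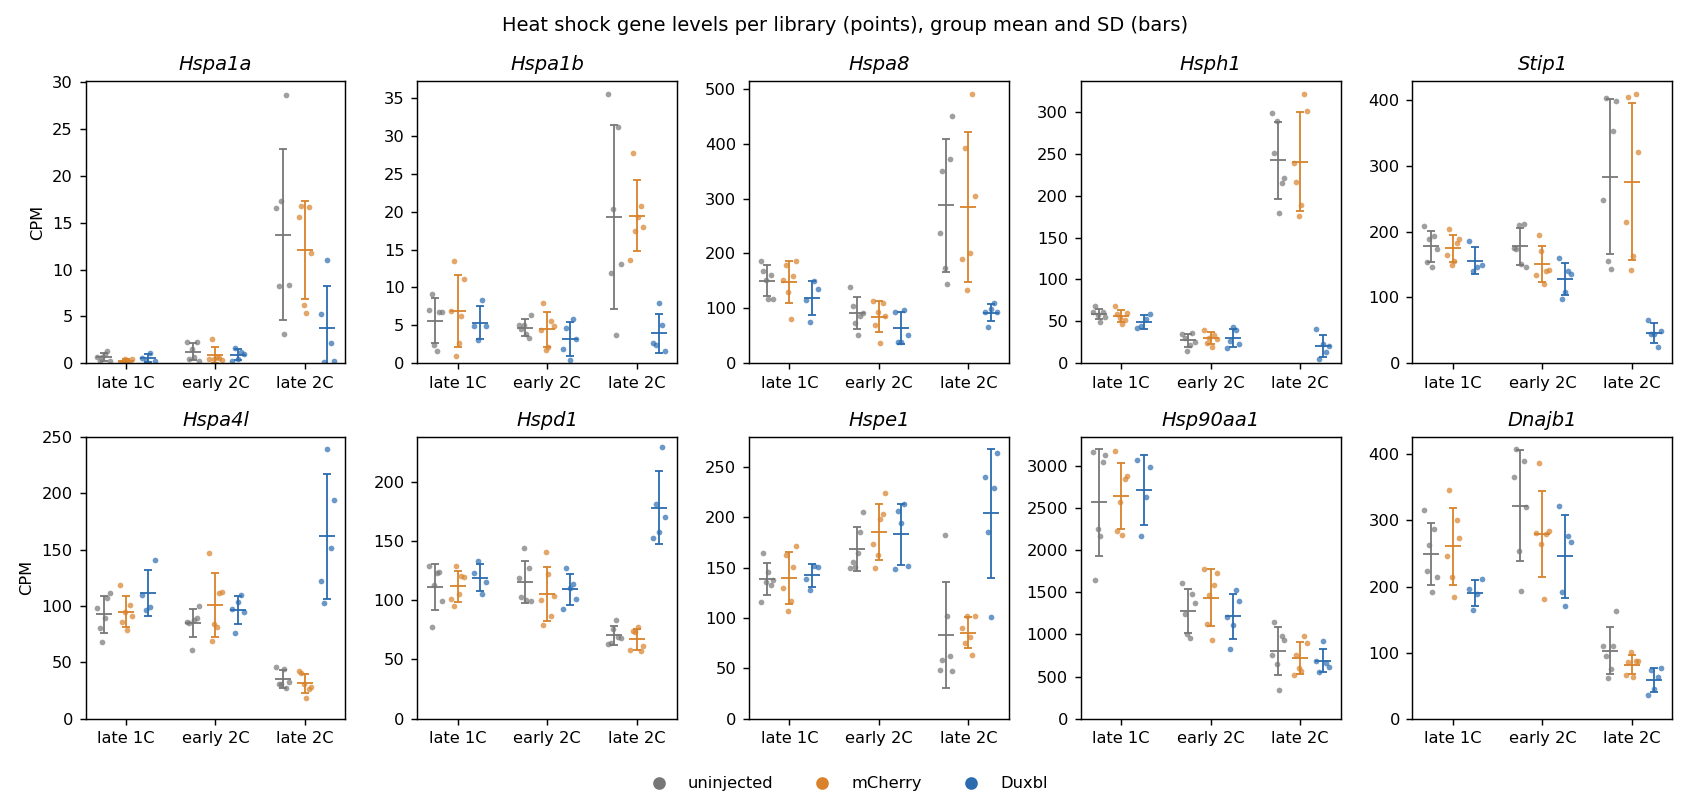
Level in CPM of each heat shock gene in each library (points) by stage in uninjected, mCherry and Duxbl embryos, with the group mean (wide tick) and SD (bars). At late 2C the 5 Duxbl libraries lie between 4.85 and 41.1 CPM for Hsph1, below all control libraries, and between 102 and 239 CPM for Hspa4l, above all of them.

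Hspa1a and Hspa1b encode the stress-inducible HSP70. Hspa1a (ENSMUSG00000091971, mm39 chromosome 17, 35188166 to 35191132, minus strand) was at 0.214 to 2.30 CPM (median 1.06) in the uninjected libraries at early 2C and at 3.06 to 28.7 CPM (median 12.5) at late 2C. The 6 mCherry libraries at late 2C had 5.38 to 16.8 CPM (median 13.7). The 5 Duxbl libraries had 5.21, 0.098, 10.98, 2.10 and 0.181 CPM in the order of libraries 1, 3, 4, 6 and 7. Library 4 was high among them, inside the mCherry range, and the groups overlapped. Hspa1a rose by 2.56 (SE 0.41, adjusted p = 3.81e-07) in uninjected embryos and was 3.86-fold lower in Duxbl than in mCherry embryos at late 2C (log2 difference -1.95, SE 0.59, adjusted p = 0.00741). Without Duxbl library 4 the difference was -2.43, with a pseudocount of 0.1 CPM -2.90 and with voom weights -3.17. In the libraries numbered 4 and 5 alone, with 1 Duxbl library, it had the other sign and was not called (0.82, adjusted p = 0.614).

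Hspa1b (ENSMUSG00000090877, mm39 chromosome 17, 35175412 to 35178214, minus strand) was at 3.37 to 6.37 CPM (median 4.79) in uninjected embryos at early 2C and at 3.71 to 35.5 CPM (median 16.7) at late 2C. At late 2C mCherry libraries had 13.6 to 27.8 CPM (median 18.7), and the 5 Duxbl libraries had 2.702, 2.35, 7.89, 5.00 and 1.63 CPM. Every Duxbl library was below every mCherry library, while uninjected library 5, at 3.71 CPM, was within the Duxbl range. The rise in uninjected embryos was 1.57 (SE 0.43, adjusted p = 0.00136), and the gene was 4.51-fold lower in Duxbl embryos (-2.17, SE 0.45, adjusted p = 0.00033). As a sum, the pair stood at 31.6 ± 7.997 CPM (SD, n = 6) in mCherry, 33.0 ± 20.5 (n = 6) in uninjected and 7.63 ± 6.85 (n = 5) in Duxbl embryos at late 2C. The summed row, Hspa1a+Hspa1b, was also called, at -2.24 (adjusted p = 0.000520).

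Hspa8 encodes HSC70, the constitutive HSP70 (ENSMUSG00000015656, mm39 chromosome 9, 40712280 to 40721383, plus strand). In uninjected embryos it was at 116 to 186 CPM (median 157) at late 1C, 51.7 to 139 CPM (median 88.7) at early 2C and 144 to 451 CPM (median 294) at late 2C. The median was lowest at early 2C, but the fall to it was not called (-0.76, adjusted p = 0.208) and those libraries overlapped. The early and late 2C libraries did not overlap (rise 1.60, SE 0.29, adjusted p = 4.12e-06). At late 2C mCherry libraries had 133 to 492 CPM (median 253) and the Duxbl libraries 92.5, 66.2, 98.0, 109.5 and 93.5 CPM. All 5 Duxbl libraries were below all 6 mCherry libraries, by 2.83-fold in the fit (-1.50, SE 0.32, adjusted p = 0.000432). Within the controls the lowest values were those of libraries 4 and 5 in uninjected embryos (174 and 144 CPM) and of libraries 4 and 1 in mCherry embryos (133 and 190 CPM).

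Hsph1 and Hspa4l encode proteins of the HSP110 family, which release ADP from HSP70, and they moved in opposite directions. Hsph1 (ENSMUSG00000029657, mm39 chromosome 5, 149537752 to 149559841, minus strand) was at 49.3 to 68.2 CPM (median 59.3) in uninjected embryos at late 1C, 15.003 to 35.7 CPM (median 27.7) at early 2C and 179 to 298 CPM (median 236) at late 2C. These 3 ranges did not overlap, and the late rise was 8.90-fold (3.15, SE 0.26, adjusted p = 3.40e-15). At late 2C the 6 mCherry libraries had 176 to 321 CPM (median 228) and the Duxbl libraries 41.1, 4.85, 23.0, 12.7 and 20.3 CPM. The highest Duxbl library was still far below the lowest mCherry library, and Hsph1 showed the largest difference of the 10 genes, 13.3-fold (-3.74, SE 0.34, adjusted p = 8.07e-09). In Duxbl embryos Hsph1 fell from early to late 2C (-0.74, SE 0.29, adjusted p = 0.0332), where in uninjected embryos it rose. The call was lost in 9 of 20 alternatives: with library totals alone (adjusted p = 0.0634), median-of-ratios scaling (0.159), voom weights (0.0717), the compared groups alone (0.203) and without the libraries numbered 4 and 5 (0.122). It was also lost without Duxbl early 2C library 5 or 6 (adjusted p = 0.115 and 0.116) or late 2C library 3 or 6 (adjusted p = 0.3003 and 0.0846).

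Hspa4l, known in mouse as a chaperone of male germ cells (ENSMUSG00000025757, mm39 chromosome 3, 40699814 to 40750538, plus strand), was at 60.9 to 99.5 CPM (median 87.0) in uninjected embryos at early 2C and at 27.2 to 45.4 CPM (median 31.8) at late 2C. It fell by 1.26 (SE 0.19, adjusted p = 1.19e-07) and the groups did not overlap. The mCherry libraries at late 2C had 18.6 to 42.3 CPM (median 29.7) and the Duxbl libraries 122, 102, 239, 152 and 194 CPM. Every Duxbl library was above every mCherry library, by 5.00-fold (2.32, SE 0.28, adjusted p = 3.02e-07). The Duxbl level at late 2C was also above that of Duxbl embryos at early 2C (97.2, 76.3, 103, 109.6 and 94.5 CPM in libraries 3 to 7), with 1 of the 5 late values within the early range. This rise of 0.69 (SE 0.21) had an adjusted p of 0.00673, and 0.0954 without the libraries numbered 4 and 5.

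Hspd1 and Hspe1 encode mitochondrial HSP60 and its lid HSP10. They are neighbours on mm39 chromosome 1 (Hspd1, ENSMUSG00000025980, 55116994 to 55127402, minus strand; Hspe1, ENSMUSG00000073676, 55127291 to 55130466, plus strand) and overlap by 112 bases, where unstranded reads cannot be assigned to either. In uninjected embryos both fell between early 2C and late 2C, and both were higher in Duxbl than in mCherry embryos at late 2C. Hspd1 was at 99.4 to 144 CPM (median 111) in uninjected embryos at early 2C and 62.8 to 83.5 CPM (median 68.6) at late 2C. The groups did not overlap (-0.70, SE 0.14, adjusted p = 3.30e-05), but with library totals alone as the scale the fall was not called (-0.33, adjusted p = 0.0585). In mCherry libraries at late 2C Hspd1 was at 57.2 to 77.5 CPM (median 67.5), and in Duxbl libraries at 153, 182, 157, 230 and 170 CPM. Every Duxbl library was above every library of all 8 other groups, and the difference from mCherry was 2.63-fold (1.40, SE 0.20, adjusted p = 4.22e-06).

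Hspe1 fell by 1.18 (SE 0.21, adjusted p = 3.03e-06) in uninjected embryos, from 150 to 205 CPM (lowest and highest, median 161) at early 2C to 47.4 to 183 CPM (median 60.1) at late 2C. Uninjected library 4, at 183 CPM, was the high one and made the groups overlap. At late 2C mCherry libraries had 63.7 to 102 CPM (median 85.4) and Duxbl libraries 241, 185, 101.0, 229 and 265 CPM. Duxbl library 4, at 101.0 CPM, was the low one and within the mCherry range, and the other 4 were above it (2.28-fold, 1.19, SE 0.32, adjusted p = 0.00302). The row Hspd1-ps3, a processed pseudogene of Hspd1, averaged 8.72 ± 6.97 CPM (SD, n = 6) in mCherry and 21.1 ± 14.3 CPM (n = 5) in Duxbl embryos at late 2C. How reads were split between it and Hspd1 is not given in the sources used here.

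Hsp90aa1 encodes the inducible cytosolic HSP90 alpha (ENSMUSG00000021270, mm39 chromosome 12, 110657039 to 110669162, minus strand). It had the highest mean level per kilobase of exon among the 10 genes in all 9 groups. In each late 2C group it led the next gene by less than the larger of their SDs. In uninjected embryos it was at 1642 to 3170 CPM (median 2649) at late 1C, 958 to 1605 CPM (median 1307) at early 2C and 339 to 1146 CPM (median 842) at late 2C. It fell at each step, with the later step smaller (-0.75, SE 0.20, adjusted p = 0.00147) and overlapping. With library totals alone as the scale, the later step missed the threshold (-0.37, adjusted p = 0.0558). At late 2C mCherry libraries had 513 to 985 CPM (median 676) and Duxbl libraries 687, 559, 922, 661 and 609 CPM. All 5 were inside the mCherry range, and the difference of -0.04 had a 95% interval from -0.57 to 0.48 (adjusted p = 0.898). Duxbl embryos lost Hsp90aa1 from early to late 2C by 0.81 (SE 0.22, adjusted p = 0.00289), a fall called in uninjected embryos too.

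Stip1 encodes the adaptor HOP, which binds HSP70 and HSP90 at the same time (ENSMUSG00000024966, mm39 chromosome 19, 6998070 to 7017335, minus strand). Uninjected embryos had 146 to 212 CPM (median 173) at early 2C and 143 to 403 CPM (median 301) at late 2C. The late libraries were split, with libraries 4 and 5 at 156 and 143 CPM, library 1 at 249 CPM and the others at 353 to 403 CPM. The rise was small and overlapping (0.57, SE 0.23, adjusted p = 0.0312). It was not called without early 2C library 5 (adjusted p = 0.0624) or without late 2C library 3, 6 or 7 (adjusted p = 0.107, 0.0850 and 0.107), nor with values as deposited (0.204) or the compared groups alone (0.0596). At late 2C mCherry libraries had 141 to 410 CPM (median 268) and Duxbl libraries 65.1, 44.8, 44.3, 23.7 and 49.1 CPM. All 5 Duxbl libraries were below every library of the other groups, including Duxbl embryos at early 2C (97.8 to 159 CPM). Stip1 was 5.75-fold lower than in mCherry embryos (-2.52, SE 0.34, adjusted p = 1.77e-06) and fell by 1.52 within Duxbl embryos from early 2C (SE 0.25, adjusted p = 2.15e-06).

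Dnajb1 encodes the main HSP40 partner of cytosolic HSP70 (ENSMUSG00000005483, mm39 chromosome 8, 84334822 to 84339282, plus strand). Uninjected embryos had 193 to 408 CPM (median 344) at early 2C and 61.5 to 163 CPM (median 103) at late 2C. The groups did not overlap, and the gene fell by 1.66 (SE 0.21, adjusted p = 1.02e-09). In Duxbl embryos it fell by 2.06 (SE 0.23, adjusted p = 1.99e-10), from 322, 192, 170, 277 and 267 CPM in libraries 3 to 7 to 35.4, 74.3, 45.3, 62.9 and 76.4 CPM. The mCherry libraries at late 2C had 62.8 to 100.9 CPM (median 86.6), overlapping the Duxbl libraries. The difference was not called (-0.50, 95% interval -1.06 to 0.05, adjusted p = 0.116). It was called with uninjected embryos as the control (-0.78, adjusted p = 0.0165), with library totals alone as the scale (-0.76, adjusted p = 0.0122) and in the fit of all 9 groups (-0.50, adjusted p = 0.0427).

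None of the 10 genes was called between mCherry and uninjected embryos at any stage, where 0% of all genes were called in limma. At an unadjusted p under 0.05, 1, 0 and 0 of the 10 genes passed at the 3 stages in order, and 558, 776 and 398 genes overall. The one was Hspa1a at late 1C (-0.45), where 2 of the 6 mCherry libraries were listed at 0 and the highest was at 0.437 CPM. Differences ranged from -0.45 to 0.12 at late 1C, -0.29 to 0.22 at early 2C and -0.28 to 0.27 at late 2C. For Hspa1a at late 1C the difference was -1.47 with a pseudocount of 0.1 CPM and -2.25 with voom weights, neither called.

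The difference between Duxbl and mCherry embryos was likewise called for 0 of 10 genes at late 1C (0.0193% of all genes called) and 0 of 10 at early 2C (0.42% of all genes called). Dnajb1 at late 1C was the only one of the 10 under an unadjusted p of 0.05 (-0.43, adjusted p = 0.817), and there was none at early 2C. Unadjusted, 1219 and 1001 genes passed. At early 2C the difference for Hsph1 was -0.01, with a 95% interval from -0.52 to 0.51, and for Hspd1 0.07 (-0.25 to 0.38). The intervals for Hspa1b (-1.23 to 0.29) and Hspa8 (-1.05 to 0.17) were wider. The test of the change in the Duxbl effect from early to late 2C called 8 of 10 genes, where 44.9% of all genes were called (21.3% higher and 23.6% lower). These were the 8 called at late 2C, with the same signs, from -3.73 for Hsph1 (SE 0.39, adjusted p = 3.61e-11) to 2.36 for Hspa4l (SE 0.28, adjusted p = 1.67e-09). The call for Hspa8 was near the threshold (-1.06, SE 0.43, adjusted p = 0.0384). It was lost in 10 of 32 alternatives, among them values as deposited (adjusted p = 0.0738), voom weights (0.0730) and the compared groups alone (0.0570). It was also lost without any of 7 single libraries, with adjusted p from 0.0567 to 0.0961. These were mCherry early 2C library 5, mCherry late 2C libraries 3, 6 and 7, Duxbl early 2C libraries 3 and 6, and Duxbl late 2C library 3. The Hspa1b call (-1.70, adjusted p = 0.0238) was lost without Duxbl early 2C library 4 (adjusted p = 0.0504) or late 2C library 7 (adjusted p = 0.0526), with a pseudocount of 0.1 CPM (0.0760) and with voom weights (0.130). From late 1C to early 2C the same test called 0 of 10 genes, where 0.00347% of all genes were called and 498 genes passed unadjusted.

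**Figure D2:**
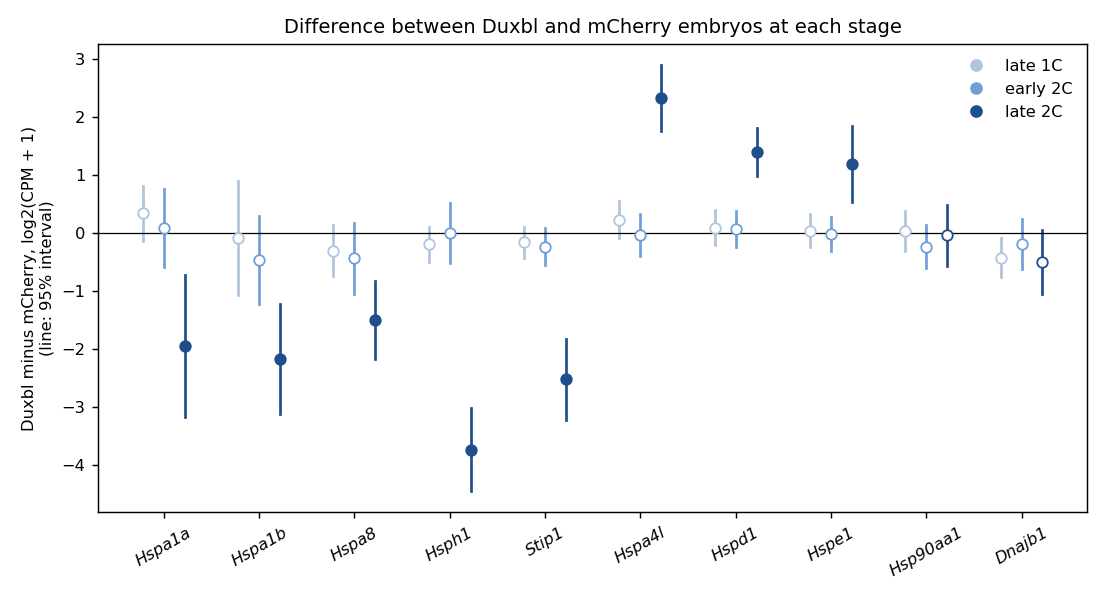
Difference between Duxbl and mCherry embryos in log2(CPM + 1) for each heat shock gene at each of the 3 stages, with 95% intervals from limma; filled points were called and open points were not. All points at the first 2 stages are open, and at late 2C the filled points run from -3.74 for Hsph1 to 2.32 for Hspa4l.

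Within Duxbl embryos, 6 of the 10 genes changed from early to late 2C, where 38.9% of all genes were called. Hspa4l and Hspd1 rose (0.69 and 0.70), and Hsph1, Hsp90aa1, Stip1 and Dnajb1 fell. Hspa4l, Hspd1, Stip1 and Hsph1 thus moved against the direction of uninjected embryos, while Hsp90aa1 and Dnajb1 moved with it. The Hsph1 fall in Duxbl embryos was lost in 9 of 20 alternatives, and the Stip1 rise in uninjected embryos in 6 of 22. The Hspa4l rise was lost without the libraries numbered 4 and 5, and the uninjected Hspd1 fall with library totals alone. The step within mCherry embryos was not tested on its own. Hspa1a (0.80, adjusted p = 0.162), Hspa1b (0.29, 0.674), Hspa8 (0.62, 0.117) and Hspe1 (0.10, 0.794) were not called, each pair giving the log2 change and the adjusted p. Hspa1a was called without Duxbl late 2C library 3 or 7 (adjusted p = 0.0339 and 0.0409), and Hspa8 without Duxbl early 2C library 3 or 6 (adjusted p = 0.0387 and 0.0351) or with median-of-ratios scaling (0.0170). Across all genes tested in both comparisons, which share no library, 62.3% of the 8672 that rose in uninjected embryos were lower in Duxbl than in mCherry embryos at late 2C. Of the 6669 that fell, 57.2% were higher. The 10 heat shock genes, with 5 of 5 and 3 of 5, followed a pattern that most changing genes showed.

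**Figure D3:**
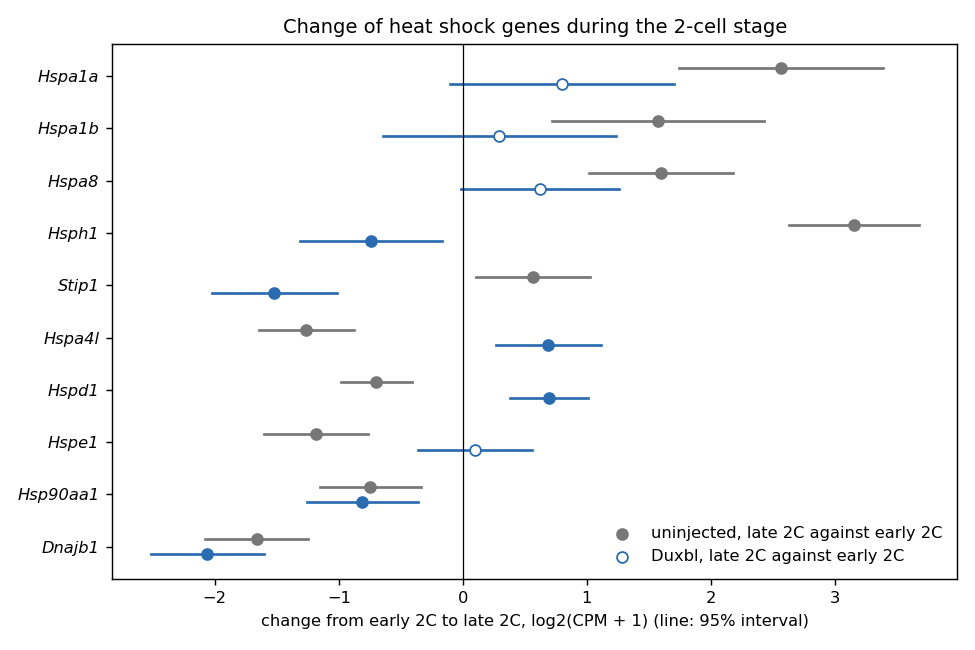
Change from early 2C to late 2C in log2(CPM + 1) for each heat shock gene in uninjected embryos and in Duxbl embryos, with 95% intervals from limma; filled points were called and open points were not. Hsp90aa1 and Dnajb1 lie left of 0 in both kinds of embryo, while Hsph1, Stip1, Hspa4l and Hspd1 lie on opposite sides.

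Levels per kilobase of exon set the genes beside each other, with the limit of exon length given below. At late 1C in uninjected embryos the order of mean CPM per kilobase was Hsp90aa1 (653), Hspe1 (94.2), Stip1 (84.1), Dnajb1 (77.8), Hspd1 (42.0), Hspa8 (34.9), Hsph1 (8.06), Hspa4l (7.84), Hspa1b (2.00) and Hspa1a (0.221). Hspe1 and Stip1 differed by less than their SDs (10.9 and 11.5), as did Stip1 and Dnajb1 (11.5 and 14.8) and Hsph1 and Hspa4l (0.873 and 1.41). The SDs of Hspd1 and Hspa8 were 7.42 and 6.62. At late 2C in uninjected embryos Stip1 (135 ± 56.0) and Hspa8 (67.0 ± 28.3) came next after Hsp90aa1 (204 ± 72.6), and Hspa4l was last (2.98 ± 0.654). The gap between Hsp90aa1 and Stip1 was less than the SD of Hsp90aa1. Hspa1a (4.62 ± 3.08) was above Hspa4l by less than its own SD. Hspa8 and Hspe1 (56.5 ± 35.7) differed there by less than their SDs. In Duxbl embryos at late 2C the mitochondrial pair Hspe1 (138 ± 43.7) and Hspd1 (67.5 ± 11.7) came next after Hsp90aa1 (175 ± 35.6). Hspe1 was below Hsp90aa1 by less than its own SD. There Hsph1 was at 2.81 ± 1.87 and Hspa4l at 13.7 ± 4.69. Exon lengths are from GENCODE M21 and may differ from those the authors used. They count the exon bases of all annotated transcripts of a gene, so long or numerous transcripts lower its level per kilobase. They ran from 1474 bases for Hspe1 to 7266 for Hsph1 and 11792 for Hspa4l, and the places of these genes rest on them. The values of Hspa1a and Hspa1b keep the limit given above for that pair.

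Ordered by mean CPM, most neighbouring groups overlapped. Hspa1a, Hspa1b, Hspa8 and Hsp90aa1 had no gap between any of the 8 neighbours in their order of 9 groups. The other 6 genes had 1 pair of neighbours each that did not overlap. For Hspd1 the pair was Duxbl late 2C and Duxbl late 1C, and for Stip1 it was Duxbl early 2C and Duxbl late 2C. For Hsph1 it was mCherry late 2C and uninjected late 1C, and for Hspa4l it was uninjected early 2C and uninjected late 2C. For Hspe1 it was uninjected late 1C and mCherry late 2C, and for Dnajb1 it was Duxbl late 1C and uninjected late 2C. Hspa1a had the widest span, 70.2-fold between the mean of uninjected late 2C and that of mCherry late 1C, the latter at 0.195 CPM.

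Over the 50 libraries, Hspa1a, Hspa1b, Hspa8 and Hsph1 correlated with each other at Pearson r of 0.59 to 0.80 in log2(CPM + 1), and Hspa4l, Hspd1 and Hspe1 at 0.66 to 0.77. Between these sets r was -0.57 to -0.81, and Hsp90aa1 and Dnajb1 correlated at 0.70. The libraries share stage and injection, so these values describe group differences more than gene pairs. Of 13013 genes with a mean of at least 10 CPM in some group, the most alike was Rps25 for Hsph1 (r = 0.970), followed by Rps9 (0.958), both ribosomal protein genes. It was Med4, a Mediator subunit, for Stip1 (0.952), Mipol1 for Hspa4l (0.949), Sirt4, a mitochondrial sirtuin, for Dnajb1 (0.948), Nsrp1, a splicing regulator, for Hsp90aa1 (0.931) and Gng5, a G protein subunit, for Hspe1 (0.930). It was Pheta1 for Hspa1a (0.918), Il7, a cytokine, for Hspd1 (0.895), Rars, arginyl-tRNA synthetase, for Hspa8 (0.893) and Edf1 for Hspa1b (0.828).

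Among the other chaperone system genes, heat shock factors and their regulators were mostly higher in Duxbl than in mCherry embryos at late 2C. Of 8 genes, 5 were higher and 1 lower, where 25.9% of all genes were higher and 29.8% lower. The median was 1.75, against -0.09 over all genes. Hsbp1, an HSF1-binding inhibitor, was at 944 ± 108 against 193 ± 76.8 CPM (2.37, adjusted p = 3.28e-08). Hsf2bp (2.38) and the germ-cell factor Hsf5 (2.39) were also higher. Hsf1 and Hsf2 were looked up after the values were seen. Hsf1 was at 312 ± 87.8 CPM (SD, n = 5) in Duxbl against 139 ± 21.6 CPM (n = 6) in mCherry embryos (1.13, SE 0.29, adjusted p = 0.00207), and it fell by 1.08 in uninjected embryos from early 2C to late 2C (adjusted p = 2.77e-05). Hsf2 was at 26.0 ± 11.7 against 4.17 ± 2.37 CPM (2.38, SE 0.44, adjusted p = 8.33e-05). Like Hsf1, 57.2% of the 6669 genes that fell in uninjected embryos were higher in Duxbl than in mCherry embryos at late 2C. Of the 10 heat shock genes, 5 were lower and 3 higher there. A link between Hsf1 transcript and these genes was not tested.

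Over all genes at late 2C, 29.8% were lower and 25.9% higher in Duxbl embryos, and the counts of the other lists stand beside these shares. All 8 subunits of the TRiC chaperonin, which folds actin and tubulin, were lower (median -2.44). Cct3, for example, was at 21.6 ± 17.1 CPM in Duxbl against 246 ± 54.4 CPM in mCherry embryos (-3.71, adjusted p = 8.82e-09). In uninjected embryos 5 of the 8 had risen between the early and late 2C stages and 0 had fallen. Over all genes 30.8% rose and 26.3% fell at that step. The values that follow are again for Duxbl against mCherry embryos at late 2C. Of 9 HSP70 co-chaperones, 6 were lower and 2 higher (median -1.51), with the exchange factor Hspbp1 at 1.02 ± 1.22 against 43.9 ± 19.6 CPM (-4.51, adjusted p = 6.34e-09) and the ubiquitin ligase Stub1 (CHIP) at 4.93 ± 2.71 against 43.4 ± 14.7 CPM. Of 6 further HSP70 and HSP110 genes 3 were lower and 0 higher (median -1.22), among them Hspa4, the remaining HSP110 gene, at 47.0 ± 16.2 against 168 ± 73.7 CPM. Of 14 other HSP40 genes 5 were lower and 2 higher (median -0.63), and Dnajb4 was higher (277 ± 67.1 against 76.8 ± 44.6 CPM). Of 16 genes of HSP90 and its partners 7 were lower and 4 higher (median -0.76). The immunophilin Fkbp4 was at 11.1 ± 6.69 against 142 ± 81.1 CPM. Hsp90ab1, the constitutive paralog looked up after its values were seen, was at 138 ± 79.4 against 397 ± 201 CPM (-1.58, adjusted p = 0.00175), where Hsp90aa1 was not called.

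Of 15 other mitochondrial chaperones and proteases 6 were lower and 1 was higher (median -0.66), beside the same 29.8% and 25.9% of all genes. Grpel1, the exchange factor of mitochondrial HSP70, was at 24.7 ± 8.35 against 280 ± 50.4 CPM (-3.51), and Clpx, of the ClpXP protease, at 31.2 ± 13.03 against 187 ± 56.4 CPM. Hspa9, the mitochondrial HSP70 itself, looked up after its values were seen, was 1.58-fold lower (-0.66, adjusted p = 0.0284). Small heat shock proteins had 1 higher and 1 lower of 5 tested (median 0.03), with Hspb1, HSP25 in mouse, at 28.3 ± 12.9 against 130 ± 51.8 CPM. Of 6 prefoldin genes 3 were lower and 1 higher (median -0.74). At early 2C none of the members of these lists was called between Duxbl and mCherry embryos in limma.

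**Figure D4:**
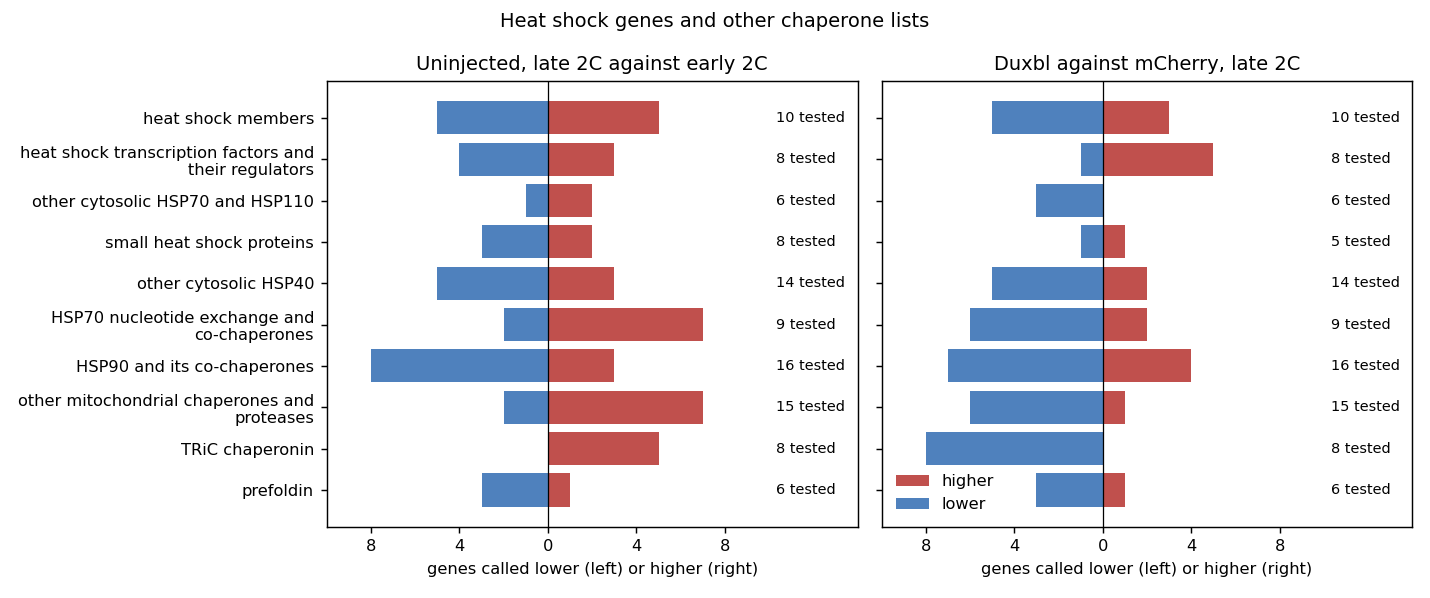
Number of genes called lower (left, blue) and higher (right, red) in the 10 heat shock genes and in each list of other chaperone genes, for uninjected embryos from early to late 2C and for Duxbl against mCherry embryos at late 2C; the number tested stands at the right. All 8 TRiC genes are lower in Duxbl embryos, and 5 of 8 heat shock factors and regulators are higher. Of all genes, 29.8% were lower and 25.9% higher in that comparison.

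Stage markers also differed between the groups. At late 2C, 25.9% of all genes were called higher in Duxbl than in mCherry embryos and 29.8% lower. At late 2C the summed level of 15 oocyte and zygote markers was 5942 to 7303 CPM in Duxbl against 2497 to 3282 CPM in mCherry embryos (11 of 15 higher, 0 lower), and that of 18 2-cell stage markers was 25.5 to 254 against 1663 to 4833 CPM (18 of 18 lower). At late 1C 2 of 13 tested 2-cell stage markers were already lower, where 0.0193% of all genes were called. At early 2C 7 of 16 were lower, where 0.42% of all genes were called. No heat shock gene was called at either of these stages. Markers of other sources of RNA were also summed, at late 2C unless another stage is named. Their counts stand beside the same 25.9% and 29.8% of all genes. The summed level of 10 cumulus and granulosa markers was 16.7 to 76.2 against 9.97 to 25.1 CPM (3 higher and 1 lower of 7 tested, Inhba at 0 in all Duxbl libraries), and of 6 oviduct markers 74.99 to 180 against 46.8 to 157 CPM (1 of 4 higher). At late 1C the oviduct sum was 4.11 to 8.09 CPM in Duxbl and 4.28 to 12.1 CPM in mCherry embryos. For 7 sperm markers the sum at late 2C was 4.06 to 31.3 against 3.20 to 9.88 CPM (1 higher and 3 lower of 4, Smcp at 0 in all mCherry libraries). For 4 blood markers it was 3.03 to 12.9 against 30.8 to 51.4 CPM (2 of 3 lower). At late 1C the blood sum was 0.0845 to 49.1 CPM (median 0.838) in Duxbl and 0.263 to 1.84 CPM (median 1.13) in mCherry embryos. The part of all these markers in the heat shock gene differences was not tested.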

How the data were processed

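The submitters' processing notes name, without roles, the mm39 genome and the tools DESeq2 1.36.0, DESeq, featureCounts 2.0.4, Picard 3.0.0, STAR 2.7.10a and Trimmomatic 0.39. SMART-Seq v4 was used for cDNA, per the labels' protocols, and libraries were made with Nextera XT (no strand information), and 2x75 bp reads were taken. The deposited values are whole numbers treated as a score and not as counts, because in 19 of 50 libraries some whole number from 1 to 20 never occurs, as after scaling and rounding. No pair of libraries held identical values.

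Values were divided by library totals over 28808 genes kept (a value of 10 or more in a number of libraries equal to the smallest group's) times trimmed-mean-of-M factors (30% of ratios, 5% of abundances trimmed), giving CPM, with 1 CPM added before log2. This understates changes of low genes. limma 3.58.1 in R 4.3.3 was run on group means with its trend and robust options. The fit used the 3 groups of a stage for comparisons within it and all 9 groups otherwise, two-sided, with Benjamini-Hochberg adjustment over all genes tested. Procedures were tested on simulated data. The 10 genes and the lists were chosen with earlier results of these data known. Named list genes are up to 3 called genes with the smallest adjusted p per list. Same-numbered libraries deviated together, with every pair's correlation over 0.1, for uninjected early 2C against late 1C (0.16 to 0.56), mCherry against uninjected at late 1C, and Duxbl against mCherry at late 1C and early 2C. Alternatives tried were other scalings, a pseudocount of 0.1 CPM, no filter, voom weights, a replicate block, other fits, other controls, Hspa1a and Hspa1b as 1 row, and libraries left out. Leaving out the libraries numbered 4 and 5 together was likewise chosen with earlier results known. Some results are not reported here.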

Additional observations from a re-analysis of the deposited data

Results flagged for a closer look

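Of 90 sets of libraries (10 genes in 9 groups) examined for 1 library far from the rest, 2 held one, where about 4.5 would be found by chance. In mCherry embryos at early 2C, Hspa1a was at 2.55 CPM in library 3 and at 0.297 to 0.668 CPM in the others. In uninjected embryos at early 2C, Hspa4l was at 60.9 CPM in library 4 and at 85.2 to 99.5 CPM in the others.

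The effect of Duxbl against mCherry mRNA differed between late and early 2C, by a test of the difference itself in limma, for 8 genes. On the log2 scale the difference was -3.73 for Hsph1 (adjusted p = 3.61e-11), -2.29 for Stip1 (2.04e-07), -2.03 for Hspa1a (0.00504), -1.70 for Hspa1b (0.0238) and -1.06 for Hspa8 (0.0384). It was 2.36 for Hspa4l (1.67e-09), 1.33 for Hspd1 (8.60e-07) and 1.21 for Hspe1 (0.00119). Over all genes, 44.9% were called in the same test.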

How the results depend on the processing

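For Duxbl against mCherry at late 2C, 8 genes were called in each of the 11 fits that left out 1 library. The other alternatives gave 8 or 9, except 7 of 9 with Hspa1a and Hspa1b as 1 row and a smaller number in the libraries numbered 4 and 5 alone. There it was 3, with 1 Duxbl library assumed to vary like the other groups, and Hspa1a had the reversed value of 0.82. That setting and the scaling within a stage were added after seeing the data. Hsph1, Hspa4l and Stip1 kept their direction and call in all 25 alternatives there. Leaving out single libraries gave 9 to 10 genes for uninjected late against early 2C, 5 to 7 for Duxbl embryos over that step, and 7 to 8 for the change in the Duxbl effect. Over the remaining alternatives these counts were 8 to 10, 4 to 6 and 6 to 8. Without the libraries numbered 4 and 5, the step from late 1C to early 2C called 1 gene in uninjected and 0 in Duxbl embryos. With the replicate block, Duxbl embryos gave 2 genes at that step, the number pairs not all being correlated there; Hspa8 was added (-1.03). The block gave 3 genes for uninjected embryos at that step, against 2, and left the counts of all other comparisons as they were. The scale by library totals alone moved the median of all genes at late 2C to -0.26, from -0.09. The cause of these changes was not tested. Because the values are scaled, read depth is unknown, and no counting error can be given for Hspa1a at levels under 1 CPM.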
